A study of Mus musculus with 2 samples.

Results

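The 92 potassium channel genes described here are the protein-coding genes of GENCODE release M21 on mouse chromosomes 1 to 19 whose symbol begins with Kcn, out of 20807 protein-coding genes on these chromosomes. They fall into 21 subfamilies, named by the letters after Kcn. Kcnd1 and Kcne1l lie on the X chromosome and are outside this set. The data are DNase-seq profiles of B6CASTF1/J mouse tissue, labelled layer of hippocampus; the strain is an F1 hybrid of the C57BL/6J laboratory strain and the wild-derived CAST/EiJ strain. The mice were labelled male and 25 days old, with no treatment or added allele given. There is 1 group of 2 libraries, numbered as biological replicates 1 and 2, which share a donor entry. Nothing states whether they came from separate animals, so the spread between them may be technical or may hold differences between animals. Their sex-linked promoters differed, as given below. With 1 group the study has no contrast between conditions, and all results below are descriptions without a test.

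DNase I cuts DNA where chromatin is open. Peaks of cuts mark promoters and other regulatory regions, and footprints are short stretches of bases within them that are shielded from cutting. Peak height is the authors' signal value, with a scaling that the sources used here do not state. Replicate 1 had 93545 peaks over 23.3 Mb and 223251 footprints, and replicate 2 had 79144 peaks over 18.04 Mb and 170016 footprints. The number of cuts behind each peak is unknown. The promoters of the Y-linked genes Ddx3y, Uty, Kdm5d and Eif2s3y had peak values of 0.42 to 0.89 in replicate 1 and no peak in replicate 2. The Xist promoter had no peak in replicate 1 and a value of 1.01 in replicate 2. At these promoters replicate 2 goes against its label. It is called the library labelled as male replicate 2 wherever a difference between the libraries is given. On the whole Y chromosome, however, replicate 1 had 40 peaks with a highest value of 1.70, and replicate 2 had 39 with a highest value of 5.10. Uty had 0 distal peaks in replicate 1 and 2 in replicate 2. The sex of replicate 2 was thus not settled. Promoters of the neuronal markers Rbfox3, Snap25, Syt1 and Map2 were open in both libraries (4 of 4), as were 4 of 5 markers of hippocampal excitatory neurons. Neurod2, the fifth, had a value of 2.12 in replicate 1 and no peak in the library labelled as male replicate 2. Of the other marker lists, 1 of 3 inhibitory, 2 of 4 astrocyte, 1 of 4 oligodendrocyte, 0 of 3 microglial, 1 of 3 endothelial, 2 of 2 choroid plexus, 1 of 3 muscle and 0 of 2 liver promoters were open in both.

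Potassium channels let potassium ions cross the membrane, set the resting potential and end action potentials. Voltage-gated pore subunits open on depolarization, inward rectifiers and leak channels act near rest, calcium- and sodium-activated channels follow spiking, and auxiliary subunits alter gating and traffic. In the hippocampus these channels are known for the A-type current of dendrites, the M-current, and the afterhyperpolarization that follows a spike. In bulk tissue, fewer cells with an open site and a less open site in each cell cannot be told apart.

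Most potassium channel promoters were open, but their highest peaks were low. A promoter peak, within 1 kb of an annotated transcription start site (TSS), was found in both libraries for 67 of the 92 genes, or 72.8%, where 63.9% of all autosomal protein-coding genes had one. Another 7 had a promoter peak in 1 library only (3.78% of all genes), and 18 had none in either library (6721 of all 20807 genes). With the authors' shorter peak list 54 members, or 58.7%, were open in both, and 58.4% of all genes were. Among the 67 open members the median of the highest peak value in the window was 1.34 in replicate 1 and 1.19 in the library labelled as male replicate 2. Over the 13300 genes open in both libraries the same medians were 2.26 and 2.15. Of the 67 open members, 61 lay below the median of all open genes, as means of both libraries, and 6 above it. The means ran from 0.362 for Kcnj16 to 4.87 for Kcnab2. Promoter values of members ranked alike in the libraries (Spearman's rho 0.91 across 67 genes, which share library, depth and base composition and are not independent replicates). When all peak values in the window were summed instead, the difference was smaller. The medians were then 2.56 for open members and 3.10 for all open genes, as means of both libraries.

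**Figure D1:**
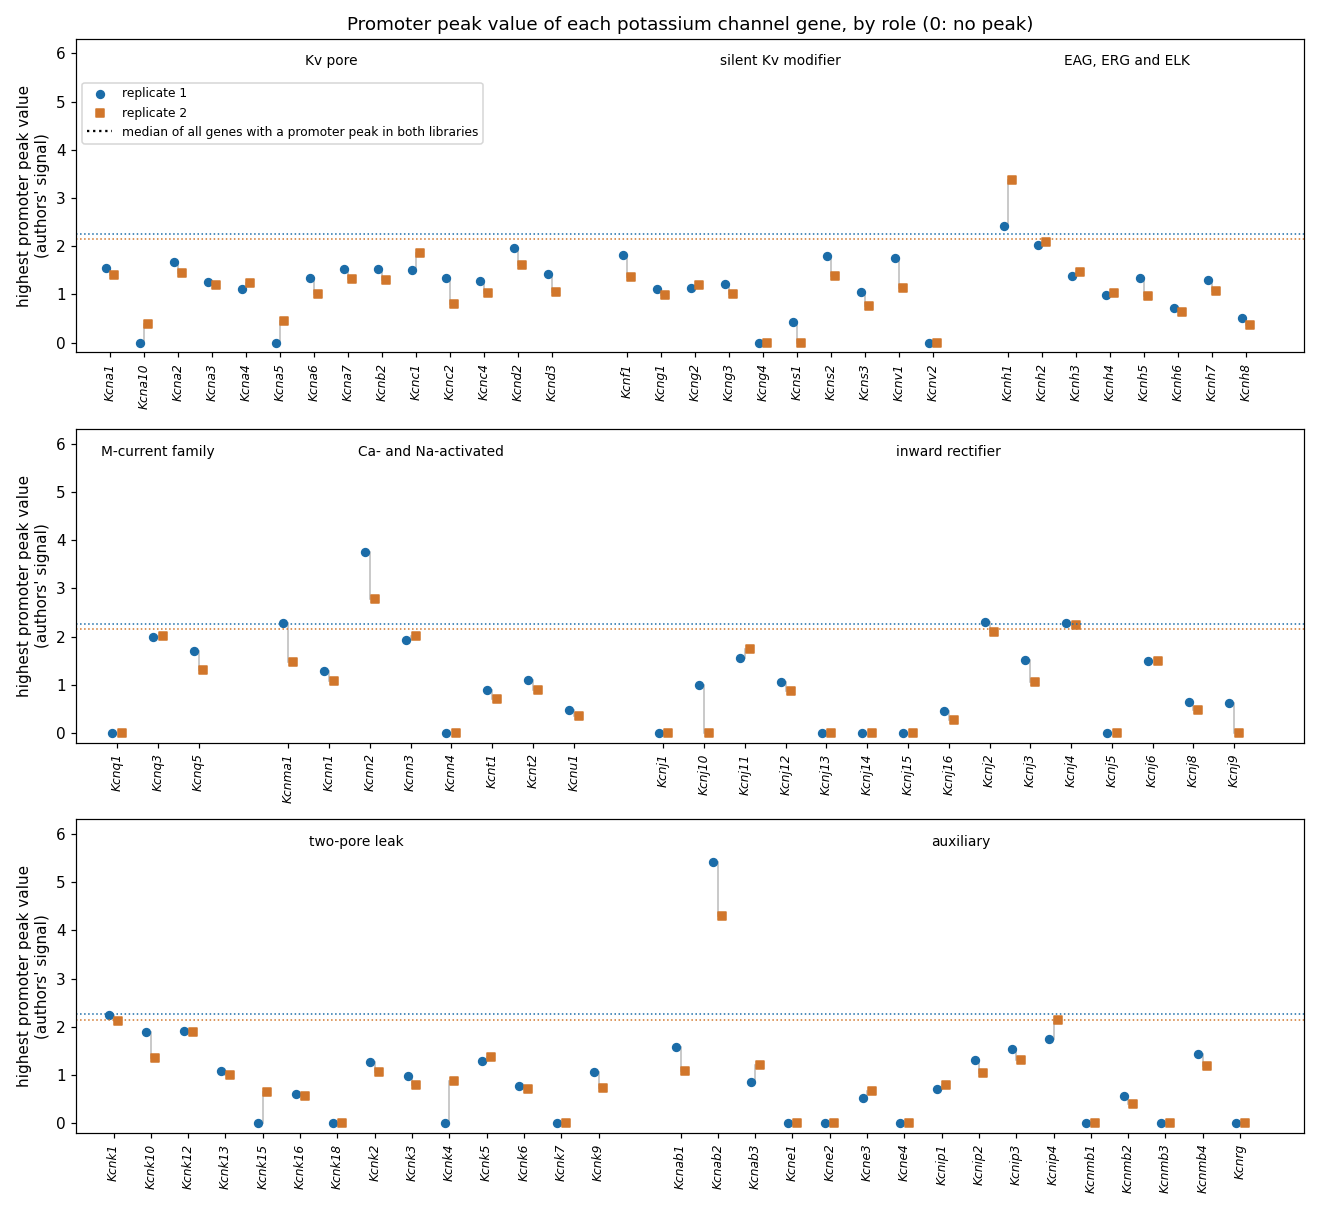
Highest promoter peak value (the authors' signal) of 88 of the 92 members in replicate 1 (circles) and replicate 2 (squares), grouped by role, with 0 for no peak. Dotted lines show the medians of all genes open in both libraries, 2.26 and 2.15, and most members lie below them.

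The share of open promoters varied between roles. All 8 Kcnh genes, which encode the EAG, ERG and ELK channels, were open in both libraries, as were 14 of 16 pore subunits of the Kcna, Kcnb, Kcnc and Kcnd subfamilies. Calcium- and sodium-activated channels followed with 7 of 8. The leak channels with tandem pore domains (Kcnk) had 10 of 14, the electrically silent modifiers (Kcnf, Kcng, Kcns, Kcnv) 7 of 10, the auxiliary subunits 10 of 16 and the M-current family (Kcnq) 3 of 5. The inward rectifiers (Kcnj) had the lowest share, 8 of 15. Within the auxiliary subunits all 3 Kcnab and all 4 Kcnip genes were open, but 1 of 4 Kcne and 2 of 4 Kcnmb genes. These groups are small, and the differences between them were not tested.

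Among the voltage-gated pore subunits, the delayed rectifier Kcnb2 had a promoter value of 1.53 in replicate 1 and 1.31 in the library labelled as male replicate 2. Kcnc1, a channel of fast-spiking neurons, had 1.51 and 1.86. Kcnd2 and Kcnd3, the pores of the A-type current, had 1.96 and 1.61, and 1.43 and 1.05. The axonal channels Kcna1 and Kcna2 had 1.55 and 1.41, and 1.67 and 1.45, and the A-type channel Kcna4 had 1.12 and 1.24. Kcna5 and Kcna10 stood apart from this subfamily. Each had a promoter peak only in the library labelled as male replicate 2, at 0.44 and 0.38. Kcna5 lies in a row with Kcna1 and Kcna6 on chromosome 6, and Kcna10 in a row with Kcna3 and Kcna2 on chromosome 3, so each of these rows holds 2 promoters open in both libraries and 1 open in 1 library.

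Of the silent modifiers, which form channels only together with Kcnb subunits, Kcnf1 had 1.81 and 1.35 and Kcns2 had 1.79 and 1.37. Kcnv2 and Kcng4 had no promoter peak, and Kcns1 had one of 0.43 in replicate 1 only. Kcnh1, an EAG channel, reached 2.41 and 3.37, and Kcnh2, an ERG channel, 2.02 and 2.09. Kcnh8 was the lowest of its subfamily at 0.50 and 0.37, and Kcnh7 had 1.29 and 1.06. In the Kcnq subfamily the neuronal M-current genes Kcnq3 and Kcnq5 were open, at 1.99 and 2.00, and at 1.70 and 1.31. Kcnq1, best known from heart and inner ear, had no promoter peak in either library. The start of Kcnq1ot1, the non-coding antisense transcript inside Kcnq1, carried a peak in both libraries, at 1.25 and 1.66.

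Kcnn2, a small-conductance calcium-activated channel, had the second highest value of all members as a mean of both libraries, 3.75 and 2.78. In the library labelled as male replicate 2 alone Kcnh1 was above it. Kcnma1, the pore of the large-conductance channel, had 2.28 and 1.47, and the sodium-activated Kcnt1 had 0.88 and 0.71. Kcnn4, the intermediate-conductance channel known from red blood cells and lymphocytes, had no promoter peak. Kcnu1, known from sperm, was open in both libraries but low, at 0.48 and 0.35.

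Among the inward rectifiers, Kcnj4 (2.28 and 2.24), Kcnj2 (2.30 and 2.09) and Kcnj12 (1.05 and 0.86), which are strong rectifiers, were open, as were Kcnj11 (1.55 and 1.73) and Kcnj8 (0.64 and 0.48), the pores of ATP-sensitive channels. Of the G-protein-gated channels, Kcnj3 had 1.52 and 1.05 and Kcnj6 had 1.491 and 1.502, Kcnj9 had 0.63 in replicate 1 only, and Kcnj5 had no peak. Kcnj10, the main channel of astrocytes, had 1.00 in replicate 1 and none in the library labelled as male replicate 2. Its partner Kcnj16 was open in both at 0.46 and 0.26. Kcnj1, Kcnj13, Kcnj14 and Kcnj15 had no promoter peak. Astrocyte markers were themselves uneven, with Gfap at 1.498 and 1.90, Slc1a3 at 1.28 and 0.66, and Aqp4 and Aldh1l1 at 0 in both, and the part of cell composition in these values was not tested.

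Among the leak channels Kcnk1 was highest at 2.24 and 2.11, followed by Kcnk12 at 1.91 and 1.90. Kcnk2, a mechanically gated channel, had 1.26 and 1.06. Kcnk15 (0.65) and Kcnk4 (0.87) had promoter peaks only in the library labelled as male replicate 2, and Kcnk7 and Kcnk18 had none. Kcnab2, a cytoplasmic beta subunit of Kcna channels, had the highest promoter value of all members, 5.43 and 4.31. That peak also lies in the promoter window of the gene Nphp4, so its value cannot be given to either gene alone. Kcnab1 had 1.58 and 1.09. The calcium sensors that bind Kcnd channels were open throughout, with Kcnip4 at 1.75 and 2.14, Kcnip3 at 1.54 and 1.30, Kcnip2 at 1.31 and 1.04, and Kcnip1 at 0.71 and 0.79. Kcnmb4, the neuronal beta subunit of Kcnma1 channels, had 1.43 and 1.19. Kcnmb1, known from smooth muscle, Kcnmb3, Kcne1, Kcne2, Kcne4 and Kcnrg had no promoter peak.

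The 18 genes without a promoter peak were checked against the bases the authors list with an FDR under 0.05. For 15 of them, no such base lay in the promoter window in either library. Kcng4 and Kcnmb1 had such bases only in the library labelled as male replicate 2. Such bases in both libraries were found for 1 of the 18 (5.56%), and for 0.431% of all 6721 genes without a promoter peak.

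Footprints followed the peaks. A promoter footprint was found in both libraries for 67 members, where 62.4% of all genes had one, and all 67 members open in both were among them. Of all genes open in both, 97.6% had such a footprint. The median number of footprints in the windows of open members was 8 in replicate 1 and 7 in the library labelled as male replicate 2. Over all open genes it was 8 and 6. Kcnn2 held the most, 30 and 22, followed by Kcna1 with 18 and 15, Kcnk10 with 19 and 11, Kcnq5 with 17 and 12, and Kcnj3 with 16 and 13. These counts cover all start windows of a gene and were not adjusted for their length, which was 8834 bases in Kcnn2 and 3589 in Kcna1.

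Many members have several annotated starts. Of the 46 members whose starts form more than 1 window, 40 had a window open in both libraries, and 34 of these (85%) had exactly 1. Over all genes with several windows, 76.1% had an open one, and 80.1% of these had exactly 1. Kcnma1 (chr14) had 7 windows, of which 1 was open, and Kcnab1 had 5, of which 1 was open. Kcnk2 likewise had 1 of 5 open. The exceptions were 6 members. Kcnip4, spread over 1135 kb of chromosome 5, had 4 of 6 windows open, and the one around its farthest upstream starts, at chr5:49523764-49525907, was the highest at 1.75 and 2.14, while the others lay between 0.30 and 0.65. Kcnn2 had 2 of 4 open, and the one at chr18:45558469-45561154 held 3.75 and 2.78 against 1.03 and 1.44 for the one upstream. In Kcnc1 and Kcnip3 both of 2 windows were open. When only the farthest upstream start of each gene was used, 57 members (62.0%) were open in both libraries, and 59.4% of all genes were.

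Openness followed the CpG content of the promoter, measured as observed over expected CpG in 1 kb around each annotated start. The highest ratio among the starts of a gene was taken, and that start need not be the one with the peak. The median was 0.710 for the members open in both libraries and 0.265 for those open in neither. Among members with a ratio over 0.75, 93.3% were open in both (28 of 30), and among those with 0.25 to 0.5, 60.9% (14 of 23). For all genes these shares were 97.1% and 36.2%. Within the 67 open members the ratio and the promoter value had a Spearman's rho of 0.32, and over all open genes it was 0.41, with all promoters drawn from the same libraries. Kcnq1 stood apart, having no promoter peak at a ratio of 0.749. Kcnj2, Kcnn3 and Kcnf1 had values of 2.19, 1.97 and 1.58, as means of both libraries, at ratios of only 0.426, 0.403 and 0.433.

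**Figure D2:**
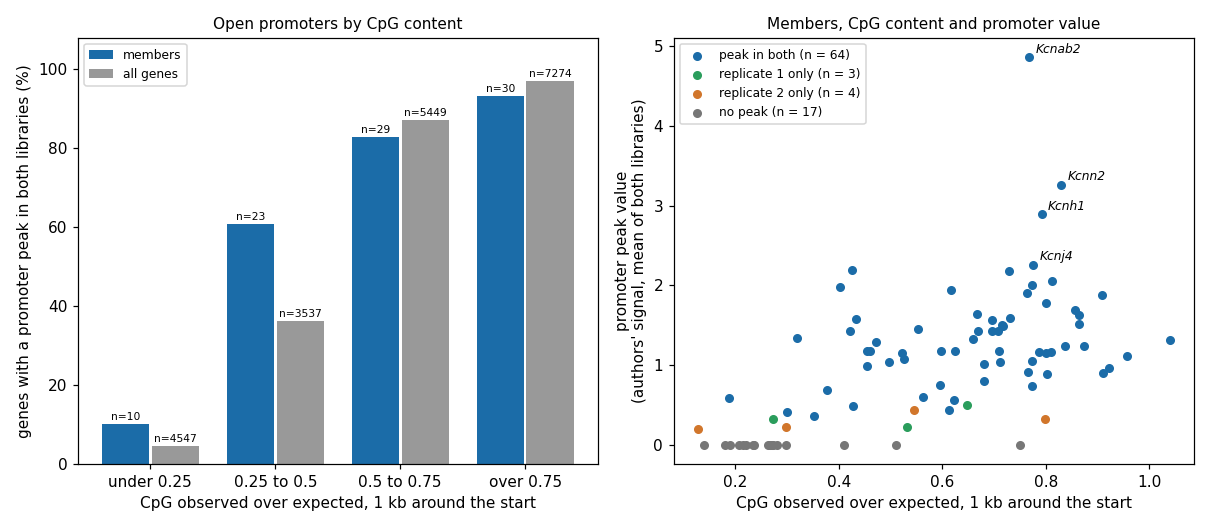
Left, share of genes open in both libraries by observed over expected CpG, for members and all genes, with the number of genes above each bar. Right, promoter value of 88 of the 92 members (mean of both libraries) against the same ratio, coloured by state; most of the genes without a peak lie at low ratios.

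RefSeq promoter sequences of 300 bases (GRCm38.p6) matched 68 members, with 93 promoters. The letters GGGCGG, the core of the GC box, were found on either strand in 47.3% of these and 48.3% of all 19174 promoters. CCGGAA, the core of ETS sites, was found in 8.60% against 19.5%, and the E-box CAGCTG in 24.7% against 15.8%. The NRF1 consensus, with 1 mismatch allowed, was found in 0 of 93 against 8.87% of all. Parts of the promoter peaks of Kcnj4 and Kcnj2 are shown, those with the most bases in footprints of both libraries. Both genes are short inward rectifier genes with promoter peaks of almost equal height, and their footprints were found in both libraries. In these sequences and in those below, capitals mark bases within footprints of both libraries, all sequences are from GRCm38.p6, which is the build mm10, and each is written 5' to 3' on the strand of its gene. The Kcnj4 stretch is chr15:79506021-79506180 on the minus strand, and the Kcnj2 stretch is chr11:111065943-111066102 on the plus strand. Neither overlaps an annotated exon.
Kcnj4: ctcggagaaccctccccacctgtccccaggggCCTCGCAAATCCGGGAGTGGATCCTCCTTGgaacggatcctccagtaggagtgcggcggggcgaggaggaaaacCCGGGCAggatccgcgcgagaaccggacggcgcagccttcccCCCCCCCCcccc
Kcnj2: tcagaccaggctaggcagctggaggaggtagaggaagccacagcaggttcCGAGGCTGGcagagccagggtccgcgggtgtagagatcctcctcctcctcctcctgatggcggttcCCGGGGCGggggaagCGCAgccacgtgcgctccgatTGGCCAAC
The Kcnj4 part had 45 of its 160 bases in 3 footprint stretches and no match to the 12 motifs searched. The Kcnj2 part had 29 bases in 4 stretches and held GGGCGG as well as the E-box letters CACGTG and, nearer to its 5' end, CAGCTG. In the RefSeq promoter sequences GGGCGG was found for both genes, so its absence holds only for the Kcnj4 part shown. A match is a description of the letters, and no match says nothing about a factor.

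Beyond promoters, the median potassium channel gene held more peaks than most genes of its length, but the members longer than 100 kb as a group did not. Distal peaks, which lie outside every promoter window of a protein-coding gene, were counted in the gene and 10 kb on each side. Each count was ranked, as a percentile, within the 200 genes closest to it in length. The median member lay at the percentile 69.9, against 47 for all genes. Without matching for length, the median count was 2.5 distal peaks for members and 1 for all genes. The median lengths were 32.2 kb and 17.6 kb. Of the 92 members, 43 were above the percentile 75, where 24.7% of all genes were, and 12 were below 25, where 23.9% were. Among genes open at the promoter in both libraries, the median percentile was 67.5 for members and 55 for all genes. Of these members, 31 of 67 were above 75, against 28.3% of all such genes. In each library taken alone, 29 members were above 75 in both, where 15.9% of all genes were. At least 1 distal peak in each library was found for 70 members (50.6% of all genes), and 8 members had none in either (7414 of all 20807 genes).

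**Figure D3:**
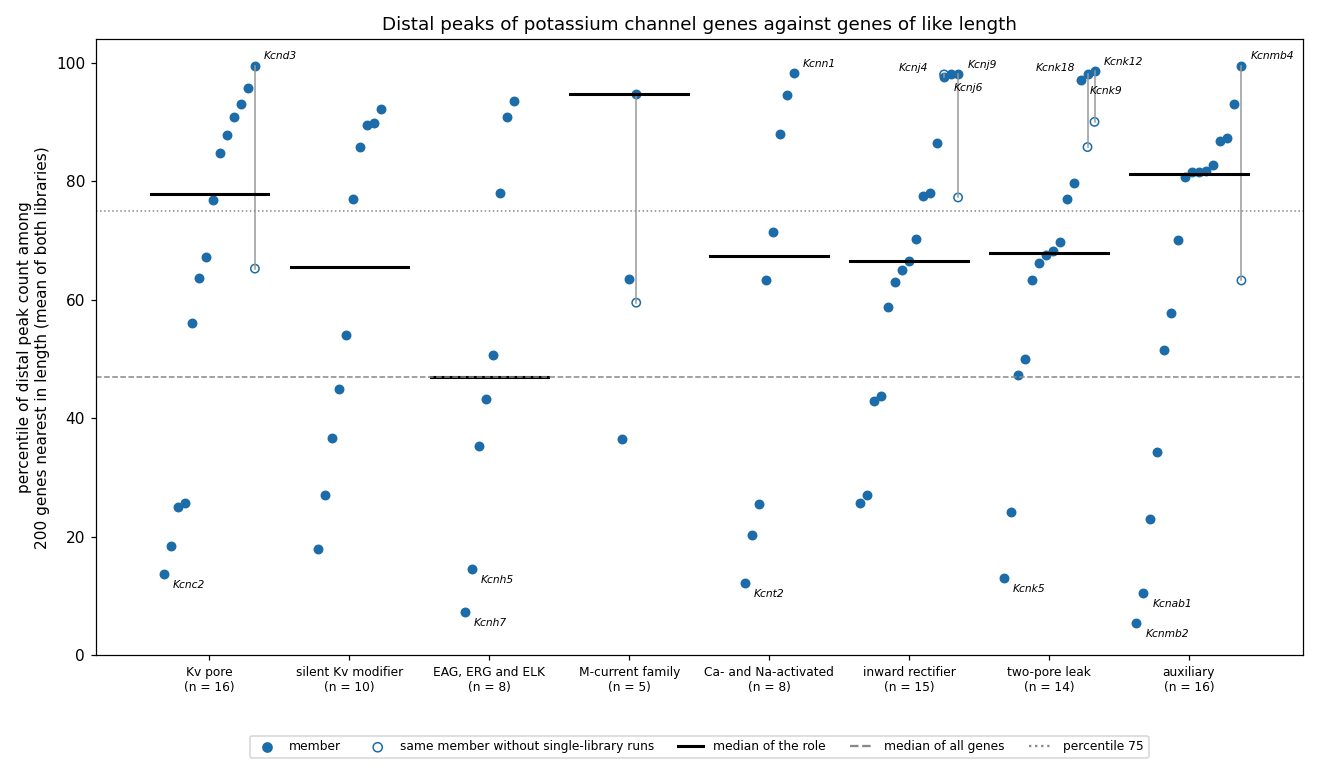
Percentile of each member's distal peak count within the 200 genes closest in length (mean of both libraries), by role. Filled circles are 88 of the 92 members, open circles 7 of them without runs of single-library peaks, and bars the medians of all members of a role, which run from 47 for the Kcnh genes to 94.75 for the Kcnq genes (66.8 without the runs).

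By role the median percentile was 94.75 for Kcnq, 81.1 for the auxiliary subunits, 77.9 for the pore subunits and 47 for Kcnh. Without the runs of single-library peaks described below these medians were 66.8, 75.6, 72.5 and 48.4, so the Kcnq value rested on such a run. The high percentiles lay mostly among the shorter members. Of the 69 members of 100 kb or less, 38 were above the percentile 75 and 4 below 25, with a median of 77.5. Over all genes of any length, 24.7% were above 75 and 23.9% below 25, with a median of 47. Shares for all genes of 100 kb or less were not computed. The 23 longer members had a median of 43, with 5 above 75 and 8 below 25, and of all genes of that length 25.2% were above 75 and 24.4% below 25, with a median of 50.2. The long members were nearly all open at the promoter, 22 of 23, where 88.5% of all genes of that length were. Members without any promoter peak still had a median percentile of 74.0, and 9 of the 18 were above 75, while all genes without one had a median of 30.2, with 16.1% above 75. Of these 9 members, Kcnq1 fell from 94.75 to 59.5 without its run. Another, Kcnmb1, lies within Kcnip1, whose promoter was open in both libraries.

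Kcnn1, a small-conductance calcium-activated channel, had 5 distal peaks in replicate 1, against 6 in the library labelled as male replicate 2, at the percentile 98.25. Kcnj4 had 6 and 6 (98), and Kcnk9 had 10 and 7 (97). Kcnj6, of 249 kb, had 28 and 18 (97.5). In these 4 genes the counts were high in both libraries. At the other end stood long neuronal genes with open promoters. Kcnmb2 had 2 and 2 distal peaks over 298 kb (5.5), Kcnh7 had 5 and 2 over 491 kb (7.25), and Kcnab1 had 4 and 1 over 269 kb (10.5). Kcnt2 had 5 and 0 (12.25), Kcnc2 had 0 and 3 (13.75), and Kcnh5 had 3 and 3 over 280 kb (14.5). Kcnd2, the pore of the dendritic A-type current, had 4 and 6 over 514 kb (18.5), and Kcnn2 had 5 and 4 over 417 kb (20.25). Long members near the middle were Kcnb2 with 10 and 11 (56), Kcnma1 with 16 and 19 (63.25), Kcnq3 with 11 and 8 (63.5), Kcnip4 with 10 and 13 (34.25) and Kcnq5 with 10 and 7 (36.5).

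Part of the highest counts rested on 1 library. In 8 members, 14 runs of at least 5 distal peaks in a row, with gaps of at most 2 kb, overlapped no peak of the other library, and there no base in these runs had an FDR under 0.05. In Kcnd3, 5 such runs of 6 to 18 peaks lay 41 to 167 kb from the 5' end, and the gene had 58 distal peaks in replicate 1 but 5 in the library labelled as male replicate 2. Without the runs it had 10 and 5, and its percentile fell from 99.5 to 65.25. Kcnmb4 went from 14 and 3 to 1 and 3 (99.5 to 63.25), Kcnj9 from 13 and 0 (98 to 77.25), Kcnk12 from 15 and 4 (98.5 to 90), and Kcnk18 from 12 and 2 (98 to 85.75). Kcnj6 had 1 run of 5 peaks and kept a percentile of 98. In Kcnq1 the run, of 23 peaks over 11.3 kb, was in the library labelled as male replicate 2. The gene had 7 and 34 distal peaks, and its percentile went from 94.75 to 59.5 without it. The run of Kcnj9 lay at chr1:172319941-172327020, 2.30 to 9.38 kb downstream of its 5' end. The promoter peaks of Kcnj9 and of its neighbour Kcnj10 were likewise in replicate 1 only. Without all such runs, 40 of the 43 members stayed above the percentile 75. Over all genes, runs held 9.80% of the autosomal distal peaks of replicate 1 and 4.03% of those of the library labelled as male replicate 2.

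**Figure D4:**
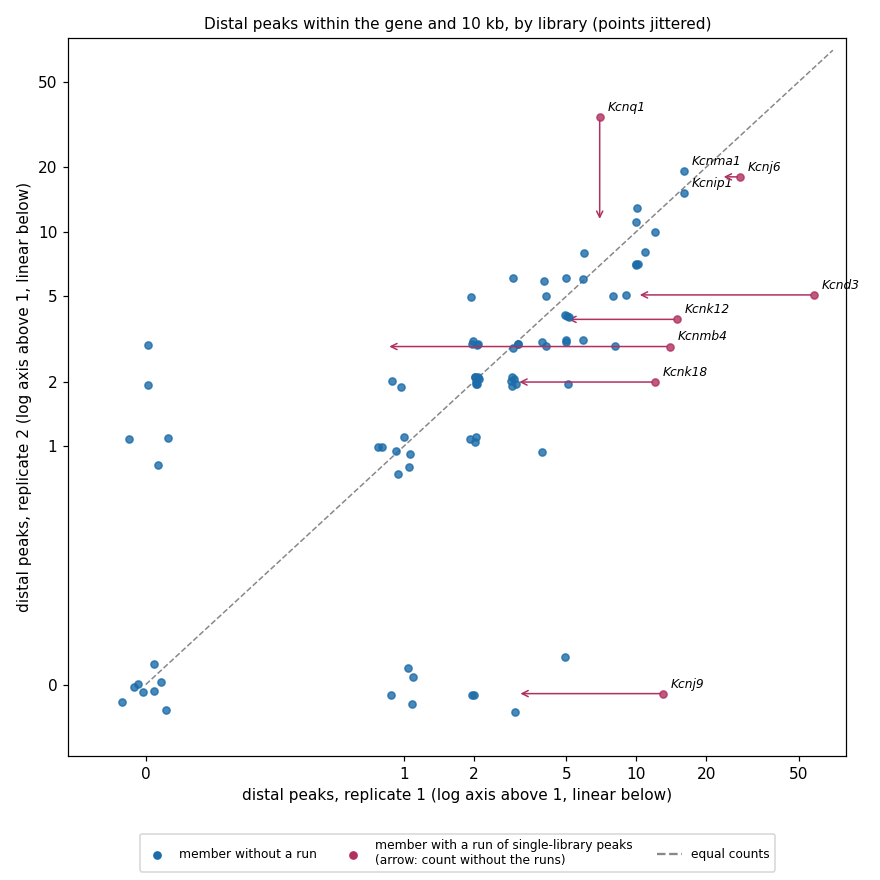
Distal peaks of 88 of the 92 members in replicate 1 and replicate 2, on axes that are logarithmic above 1 and linear below, with small random offsets. Red points are 7 members with runs of single-library peaks, arrows lead to their counts without the runs, and the dashed line marks equal counts.

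Of the distal peaks near members, 42.7% of 475 in replicate 1 and 62.3% of 337 in the library labelled as male replicate 2 overlapped one in the other library by at least 1 base, against 49.4% and 64.3% for all genes. Peaks found in both libraries had median values of 0.92 and 0.79, and those in 1 library 0.37 and 0.43. Introns held 68.1% and 67.0% of the distal peaks, and 14.3% and 12.98% lay upstream. The strongest distal peak found in both libraries lay 2.46 kb upstream of Kcnn1, at chr8:70865481-70865960, with 4.97 and 4.31. It exceeded the promoter of Kcnn1 itself, which had 1.29 and 1.07. Others were downstream of Kcnn1 (3.07 and 3.42, 1.52 kb from the start of Arrdc2), downstream of Kcnk18 (3.11 and 3.15), in an intron of Kcnip2 (2.78 and 2.88), in an intron of Kcnab2 (2.37 and 3.21), downstream of Kcna6 (2.66 and 2.84), in an intron of Kcnq1 (2.83 and 2.60), upstream of Kcne2 (2.66 and 2.58), in an intron of Kcnn1 (2.37 and 2.74) and upstream of Kcnj4 (2.57 and 2.07). Kcnk18, Kcnq1 and Kcne2 thus had strong distal peaks without any promoter peak.

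Many of these strong distal peaks held the consensus of CTCF, a zinc-finger protein that binds insulators and the anchors of chromatin loops. The 12-letter consensus was searched on both strands in the middle 200 bases of each peak, with 1 mismatch allowed. It was found in 58 of the 203 distal peaks shared by both libraries (28.6%), against 23.9% of 19377 such peaks near all genes. In 44 of the 58 (75.9%), the match overlapped a footprint in both libraries, against 79.3% over all genes. Matches were concentrated in strong peaks, with 17 of the 25 highest, 13 of the next 25 and 16 of the lowest 103. All 17 in the 25 highest overlapped footprints in both libraries. Peaks with a match had a median value of 1.45, as the mean of both libraries, and those without 0.75. The same held for all genes, at 1.11 and 0.72. Among peaks in the strongest 10% of all genes, 22 of 34 near members had a match (64.7%), against 51.5% of 1938 near all genes, and among the weakest 50%, 13 of 91 (14.3%) against 12.3%.

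**Figure D5:**
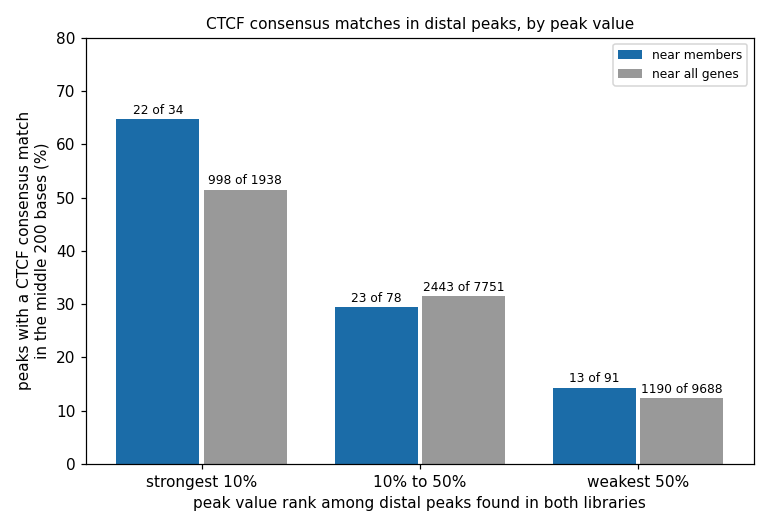
Share of distal peaks found in both libraries that hold a CTCF consensus match in their middle 200 bases, for peaks near members and near all genes, in 3 ranges of peak value. Counts stand above the bars, and the share falls from 64.7% to 14.3% near members.

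The sequences of 4 of these peaks show a match inside a footprint of both libraries. They are the strongest ones of Kcnk18 (chr19:59239581-59239740, plus strand, downstream), Kcnab2 (chr4:152434921-152435120, minus, intron), Kcna6 (chr6:126702261-126702440, minus, downstream) and Kcnip4 (chr5:49090241-49090420, minus, intron).
Kcnk18: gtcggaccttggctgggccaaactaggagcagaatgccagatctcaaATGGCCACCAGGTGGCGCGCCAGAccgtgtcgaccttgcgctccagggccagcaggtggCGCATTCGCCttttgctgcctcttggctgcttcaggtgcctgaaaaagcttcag
Kcnab2: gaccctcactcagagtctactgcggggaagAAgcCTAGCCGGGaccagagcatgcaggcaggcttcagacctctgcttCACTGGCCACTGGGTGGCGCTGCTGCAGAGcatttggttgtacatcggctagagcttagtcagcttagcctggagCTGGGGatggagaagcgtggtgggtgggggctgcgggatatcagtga
Kcna6: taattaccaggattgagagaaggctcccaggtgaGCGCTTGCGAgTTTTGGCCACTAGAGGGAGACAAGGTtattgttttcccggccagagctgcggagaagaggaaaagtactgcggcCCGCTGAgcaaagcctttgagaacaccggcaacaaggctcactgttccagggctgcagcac
Kcnip4: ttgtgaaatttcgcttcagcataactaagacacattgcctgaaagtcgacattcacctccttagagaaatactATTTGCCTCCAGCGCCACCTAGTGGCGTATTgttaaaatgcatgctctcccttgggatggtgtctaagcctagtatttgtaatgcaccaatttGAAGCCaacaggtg
The matched letters were CCACCAGGTGGC in Kcnk18, CCACTGGGTGGC in Kcnab2, CCACTAGAGGGA in Kcna6 and, on the strand opposite to the gene, CCACTAGGTGGC in Kcnip4. All 12 bases of each of these matches were in footprints of both libraries, and those of Kcnk18 and Kcnip4 had no mismatch. Only 1 match per sequence is named. The Kcnk18 sequence also holds the letters ccagcaggtggC, which fit the consensus too. Of these bases only the last is in capitals. The strongest peak of all, upstream of Kcnn1, had no match within 1 mismatch. It is shown for contrast, as chr8:70865574-70865793 on the minus strand.
Kcnn1: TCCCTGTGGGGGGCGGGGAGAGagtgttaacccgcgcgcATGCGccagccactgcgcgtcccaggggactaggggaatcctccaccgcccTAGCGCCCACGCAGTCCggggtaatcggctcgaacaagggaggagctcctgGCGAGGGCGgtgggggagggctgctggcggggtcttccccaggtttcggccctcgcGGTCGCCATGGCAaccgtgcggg
In it 66 of 220 bases fell in 5 footprint stretches, and it held GGGCGG and matches to the NRF1 and RFX consensus, each with 1 mismatch allowed. The Kcnip2 intron peak had no match to any motif searched.

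Genes whose products work with potassium channels but carry other names were counted from a list of 28. This list also holds Rest, which encodes a transcriptional repressor and not a channel partner. Promoters were open in both libraries for 27 of them, where 63.9% of all genes were open. The exception was Abcc9, the regulatory subunit of ATP-sensitive channels in vessels and muscle. The median distal percentile of the 28 was 68.5, and 13 were above 75, where 24.7% of all genes were. Dpp6 and Dpp10, which join Kcnd channels, had promoter values of 2.04 and 1.80, and 1.07 and 0.89, with percentiles of 67.5 and 15.25. Ank3, which anchors Kcnq channels at the axon initial segment, had 64 and 25 distal peaks (96), and Amigo1, a membrane protein that joins delayed-rectifier channels, had 5 and 11 (99.5). Cntn2 had 14 in replicate 1 and 1 in the library labelled as male replicate 2 (97.75). These partner counts and percentiles include any runs of single-library peaks.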

How the data were processed

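DNase-seq libraries of 1 group (replicates 1 and 2) were analysed from the deposited files of each: narrow peaks, a shorter list of them, footprints, and stretches of bases with their FDR values. Per the file headers the assembly is mm10, and lists were made per library, so replicates were not pooled. Peak heights are in the authors' signal unit. The authors' FDR, a p-value type column, was used only to ask whether bases had an FDR under 0.05. The footprint column is constant, so positions alone were used. Aligner, callers, versions and filters: not given in the sources used here.

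GENCODE M21 gave genes and TSS, GRCm38.p6 and RefSeq the sequences. A promoter window spans 1 kb on each side of every annotated TSS, and its value is the highest peak value in it. Distal peaks overlap no promoter window. In percentiles, ties were split evenly above and below. Named genes are the 10 with the highest promoter value, those apart from their subfamily, those open in 1 library, extremes of distal peaks, percentiles and footprints, and 25 picked for their known place in the hippocampus; partners and Kcnq1ot1 are extra. The members and lists were chosen with earlier results of these data known. Scripts in Python 3.11.15 (numpy 2.4.6, pandas 2.3.3, matplotlib 3.10.9) were tested on simulated data. Alternatives were other windows, flanks, numbers of like-length genes, start choices, peak lists, overlaps, footprints within peaks, and each library alone. No samples were left out. Some members are counted in all totals, but their own results are not reported here or drawn in the figures.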

Additional observations from a re-analysis of the deposited data

How the results depend on the processing

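The alternatives kept 54 to 71 members with a promoter peak in both libraries (or in the 1 library left; 58.4% to 66.4% of all genes), 65 to 70 with a promoter footprint (60.8% to 65.0%), and 39 to 43 above the percentile 75 (21.2% to 24.9%). Without replicate 1 or without replicate 2 the median percentile was 69.1 and 68.0. The median percentile moved from 69.9 to 66.9 for the gene body alone, 67.2 with 50 kb on each side and 70.7 against 400 genes of like length, and to 68.0 without the runs of single-library peaks, an alternative chosen after seeing the data. Summed peak values in place of the highest gave a median promoter value of 2.56 for members and 3.10 for all open genes. A reciprocal overlap of at least 50% lowered the mean share of distal peaks found in both libraries from 52.5% to 34.3%. With the shorter peak list 54 members (58.7%) were open in both libraries, against 58.4% of all genes. Of 25 named genes, 17 had a distal count that moved by more than the spread between libraries with that list, and 4 with the gene body alone. The number of cuts per peak is unknown, so a missing peak cannot be told apart from low depth. No paired analysis was possible because there is only 1 group.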

Other observations

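The X-linked members, which are outside the set, had promoter peaks in both libraries. Kcnd1, the remaining A-type pore gene, had 0.78 in replicate 1 and 0.64 in the library labelled as male replicate 2, with 2 and 1 distal peaks. Kcne1l had 0.35 and 0.33, with 3 and 3 distal peaks.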
